A study of Homo sapiens with 8 samples.

Results

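The 9 genes described here are members of the insulin-like growth factor (IGF) axis: the binding proteins IGFBP2, IGFBP3, IGFBP4 and IGFBP6, the receptors IGF1R, INSR and IGF2R, and the receptor substrates IRS1 and IRS2. They were picked by name from 57736 Ensembl genes in the files, with earlier results of these libraries known, among them the low IGFBP3 of doxycycline-treated cells of the ASCL2 line. For that reason the ASCL2-line response of IGFBP3, and each comparison that uses it, is given as a description with no test. The adjusted p-values of the other members place them in the fit over all genes and are no independent support for the choice. All 9 members passed the filter on low values, 10 or more in 2 or more libraries, which left 22100 genes to be tested.

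RNA was sequenced from 8 libraries of LS174T, an established human colon adenocarcinoma line, in 4 groups of 2. The groups were doxycycline-treated cells of a line with an inducible short hairpin RNA against the long non-coding RNA WiNTRLINC1, untreated cells of that line, doxycycline-treated cells of a line with an inducible hairpin against ASCL2, and untreated cells of that line. Treated cells received doxycycline at 1 ug/ml for 3 days, and untreated cells were grown for 3 days without it. All groups share the LS174T background and an overexpressed Tet repressor, the bacterial protein that keeps the hairpin silent until doxycycline is added. The positive cell clones with the WiNTRLINC1 hairpin were selected by RT-PCR of the targeted RNA, so that line rests on selected clones, and differences between the untreated lines cannot be told apart from differences between clones. No library came from doxycycline-treated cells without a hairpin, so effects of the drug and of the hairpin cannot be told apart. Whether the 2 libraries of a group came from separate cultures is not stated, so p-values reflect library-to-library spread alone, and that spread may be technical. Each sample's genotype label names the opposite target to its title, and the groups here follow the titles.

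The IGFs bind IGF1R and INSR, related receptor tyrosine kinases, which phosphorylate the docking proteins IRS1 and IRS2 and through them engage the kinases PI3K and AKT. IGF2R, the cation-independent mannose 6-phosphate receptor, takes up IGF2 for degradation and has no kinase domain. The secreted binding proteins hold IGFs in the extracellular space and set how much of them reaches the receptors. In the colon, IGF signalling is known as a growth signal of the epithelium and of its tumours. ASCL2 is a basic helix-loop-helix transcription factor of intestinal stem cells and a Wnt target gene.

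ASCL2 itself, the check of the labels, had deposited values of 805 and 697 in doxycycline-treated and 2540 and 2034 in untreated cells of the WiNTRLINC1 line. It had 532 and 586 in doxycycline-treated and 2855 and 3373 in untreated cells of the ASCL2 line. It was therefore lower with doxycycline in both lines and does not settle which label is right, and WiNTRLINC1 itself was not analysed here. The deposited values are read counts that had been scaled and rounded, with totals of 21524463 to 22941231 per library and 31503 to 33959 genes above 0. All 8 listed markers of colon epithelium were detected in every library. Summed values of 7 fibroblast markers were 100 to 143 in doxycycline-treated and 102 to 114 in untreated WiNTRLINC1-line cells, and 189 to 196 in doxycycline-treated and 310 to 313 in untreated ASCL2-line cells. The fibroblast markers DCN and LUM were at 0 in some library. The sums were 13 to 33 for 3 endothelial markers over the 8 libraries.

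The promoters of 4 members are shown, those past the threshold in the same direction in both lines (IGFBP4 lower, INSR and IGF1R higher with doxycycline) together with IGFBP3, lower in both and untested in the ASCL2 line. They are given here as the 250 bases before the transcription start from RefSeq (GRCh38.p14), read 5′ to 3′ on the strand of the gene. Capitals mark CANNTG, the E-box core that basic helix-loop-helix factors such as ASCL2 are known to bind. Both strands were searched, and the motif reads the same on either. The windows are chr7:45921273-45921522 (minus strand) for IGFBP3, chr17:40443200-40443449 (plus strand) for IGFBP4, chr19:7294415-7294664 (minus strand) for INSR and chr15:98648289-98648538 (plus strand) for IGF1R.
IGFBP3: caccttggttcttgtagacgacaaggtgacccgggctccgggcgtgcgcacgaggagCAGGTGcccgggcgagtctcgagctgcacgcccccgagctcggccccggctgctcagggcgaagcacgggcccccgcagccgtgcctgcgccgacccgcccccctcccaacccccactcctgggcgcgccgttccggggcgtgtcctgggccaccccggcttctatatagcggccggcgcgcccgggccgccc
IGFBP4: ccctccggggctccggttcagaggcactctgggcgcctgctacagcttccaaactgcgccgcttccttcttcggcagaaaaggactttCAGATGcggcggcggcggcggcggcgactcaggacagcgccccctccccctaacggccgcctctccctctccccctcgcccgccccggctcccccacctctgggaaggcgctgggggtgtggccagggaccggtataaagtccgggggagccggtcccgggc
INSR: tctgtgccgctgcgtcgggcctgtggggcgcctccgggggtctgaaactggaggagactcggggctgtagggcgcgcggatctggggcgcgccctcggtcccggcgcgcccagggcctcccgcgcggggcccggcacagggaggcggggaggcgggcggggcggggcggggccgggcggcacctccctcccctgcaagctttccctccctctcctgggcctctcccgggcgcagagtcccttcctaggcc
IGF1R: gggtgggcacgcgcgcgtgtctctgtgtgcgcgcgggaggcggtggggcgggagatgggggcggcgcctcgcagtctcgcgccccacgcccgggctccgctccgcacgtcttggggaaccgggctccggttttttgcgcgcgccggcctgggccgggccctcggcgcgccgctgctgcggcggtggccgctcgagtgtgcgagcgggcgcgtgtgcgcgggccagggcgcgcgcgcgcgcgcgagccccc
The IGFBP3 window holds 1 match, whose first base lies 193 bases before the start, and the IGFBP4 window holds 1 match at 162 bases. The INSR and IGF1R windows hold 0 matches, which says only that these letters are not in these windows. Of the members not shown, IGF2R has 5 matches, IGFBP6 and IRS2 1 each and IRS1 0, and the 3 annotated starts of IGFBP2 have 3, 1 and 0, so matches occur also in members with no called response or with responses that differed between the lines. Of 35116 RefSeq windows of this length, 61.8% hold at least 1 CANNTG. The forkhead motif GTAAACA, searched on both strands, was in 0 of these 4 windows and in 2.98% of all windows. Of the members not shown, IGFBP6 has 1 match to it and the others 0.

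IGFBP3 was lower with doxycycline in both lines, IGFBP4 fell in both by nearly the same amount, and IGFBP2 and IGFBP6 were separated mainly by line. In each line the summed transcript of the 4 binding proteins per kilobase was lower with doxycycline, and IGFBP4 made up most of it.

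IGFBP3 encodes the main IGF carrier of the blood. It had values of 387 and 423 in doxycycline-treated and 832 and 844 in untreated cells of the WiNTRLINC1 line. Its values were 39 and 35 in doxycycline-treated and 262 and 256 in untreated cells of the ASCL2 line. The 4 groups did not overlap, with doxycycline-treated ASCL2-line cells lowest and untreated WiNTRLINC1-line cells highest. In the WiNTRLINC1 line IGFBP3 fell by 1.05 ± 0.133 on the log2 scale (SE), 2.07-fold lower, with an adjusted p of 5.57e-05 (limma, Benjamini-Hochberg over 22100 genes). In the ASCL2 line the log2 difference was -2.78 ± 0.133, or 6.85-fold lower, and between the untreated lines it was 1.69 ± 0.133, or 3.23-fold higher in the WiNTRLINC1 line. The response in the WiNTRLINC1 line minus that in the ASCL2 line was 1.73 ± 0.188 (log2). The fibroblast marker COL1A1 had 16 and 11 in doxycycline-treated and 20 and 19 in untreated WiNTRLINC1-line cells, but 60 and 99 in doxycycline-treated and 200 and 222 in untreated ASCL2-line cells, so it was lower together with IGFBP3 in the ASCL2 line. PDGFRB and COL3A1 did not share this: PDGFRB had 71 and 66 in doxycycline-treated and 54 and 47 in untreated ASCL2-line cells, and COL3A1 had 41 and 26 in doxycycline-treated and 42 and 25 in untreated cells. The remaining 4 were at 11 or below in that line. Of these PDGFRA, too low to be tested, had 5 and 3 in doxycycline-treated and 11 and 9 in untreated cells, while COL1A2, DCN and LUM overlapped. The part of COL1A1 or of other cells in the IGFBP3 difference was not tested. In bulk RNA, fewer cells of a type and less RNA per cell cannot be told apart.

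IGFBP4, which restrains IGF action until the protease PAPPA cleaves it and is also known as an inhibitor of canonical Wnt signalling, had values of 1714 and 1763 in doxycycline-treated and 2788 and 2720 in untreated cells of the WiNTRLINC1 line. It had 1657 and 1573 in doxycycline-treated and 2481 and 2342 in untreated cells of the ASCL2 line. All 4 treated libraries lay below all 4 untreated ones. IGFBP4 fell in both lines, with log2 differences of -0.66 ± 0.0751 in the WiNTRLINC1 line (1.58-fold lower, adjusted p 2.03e-05) and -0.58 ± 0.0751 in the ASCL2 line (1.49-fold lower, adjusted p 5.12e-05). The difference between these responses, -0.09 ± 0.106, did not pass the test (adjusted p 0.677).

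IGFBP2, a carrier with a preference for IGF2, had values of 14 and 21 in doxycycline-treated and 7 and 16 in untreated cells of the WiNTRLINC1 line. In the ASCL2 line it had 1174 and 1432 in doxycycline-treated and 865 and 931 in untreated cells. Every library of the WiNTRLINC1 line was thus far below every library of the ASCL2 line, while treated and untreated WiNTRLINC1-line cells overlapped. The untreated WiNTRLINC1 line was 77.0-fold lower than the untreated ASCL2 line, a log2 difference of -6.27 ± 0.287 (adjusted p 2.14e-10). The log2 responses to doxycycline were 0.64 ± 0.287 in the WiNTRLINC1 line and 0.53 ± 0.287 in the ASCL2 line, and neither passed the test (adjusted p 0.147 and 0.2). In the WiNTRLINC1 line the first value rested on single libraries: it was 1.18 without untreated replicate 2, where it passed the test (adjusted p 0.00654), and 0.0957 without untreated replicate 1. With only the 4 libraries of the ASCL2 line fitted, the ASCL2-line response passed the test (adjusted p 0.00783).

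IGFBP6, which strongly prefers IGF2, had values of 22 and 31 in doxycycline-treated and 13 and 14 in untreated cells of the WiNTRLINC1 line. It had 150 and 129 in doxycycline-treated and 220 and 165 in untreated cells of the ASCL2 line. The treated libraries were the higher ones in the WiNTRLINC1 line and the lower ones in the ASCL2 line. IGFBP6 rose in the WiNTRLINC1 line by 0.90 ± 0.264 (log2, 1.87-fold, adjusted p 0.0263), whereas the ASCL2-line difference of -0.45 ± 0.264 did not pass the test (adjusted p 0.239). The responses differed by 1.36 ± 0.373 (adjusted p 0.0227). The rise lost its call in 6 of 19 alternatives, among them leaving out untreated replicate 1, untreated replicate 2 or treated replicate 2 of its line (adjusted p 0.101, 0.066 and 0.197), and the difference of responses lost its call in 7 of 18, with adjusted p of 0.0543 to 0.116 without treated replicate 2 or untreated replicate 1 of the WiNTRLINC1 line, or treated replicate 1, treated replicate 2 or untreated replicate 1 of the ASCL2 line. IGFBP6 was 13.2-fold lower in untreated WiNTRLINC1-line cells than in untreated ASCL2-line cells (log2 -3.72 ± 0.264, adjusted p 2.16e-08).

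**Figure D1:**
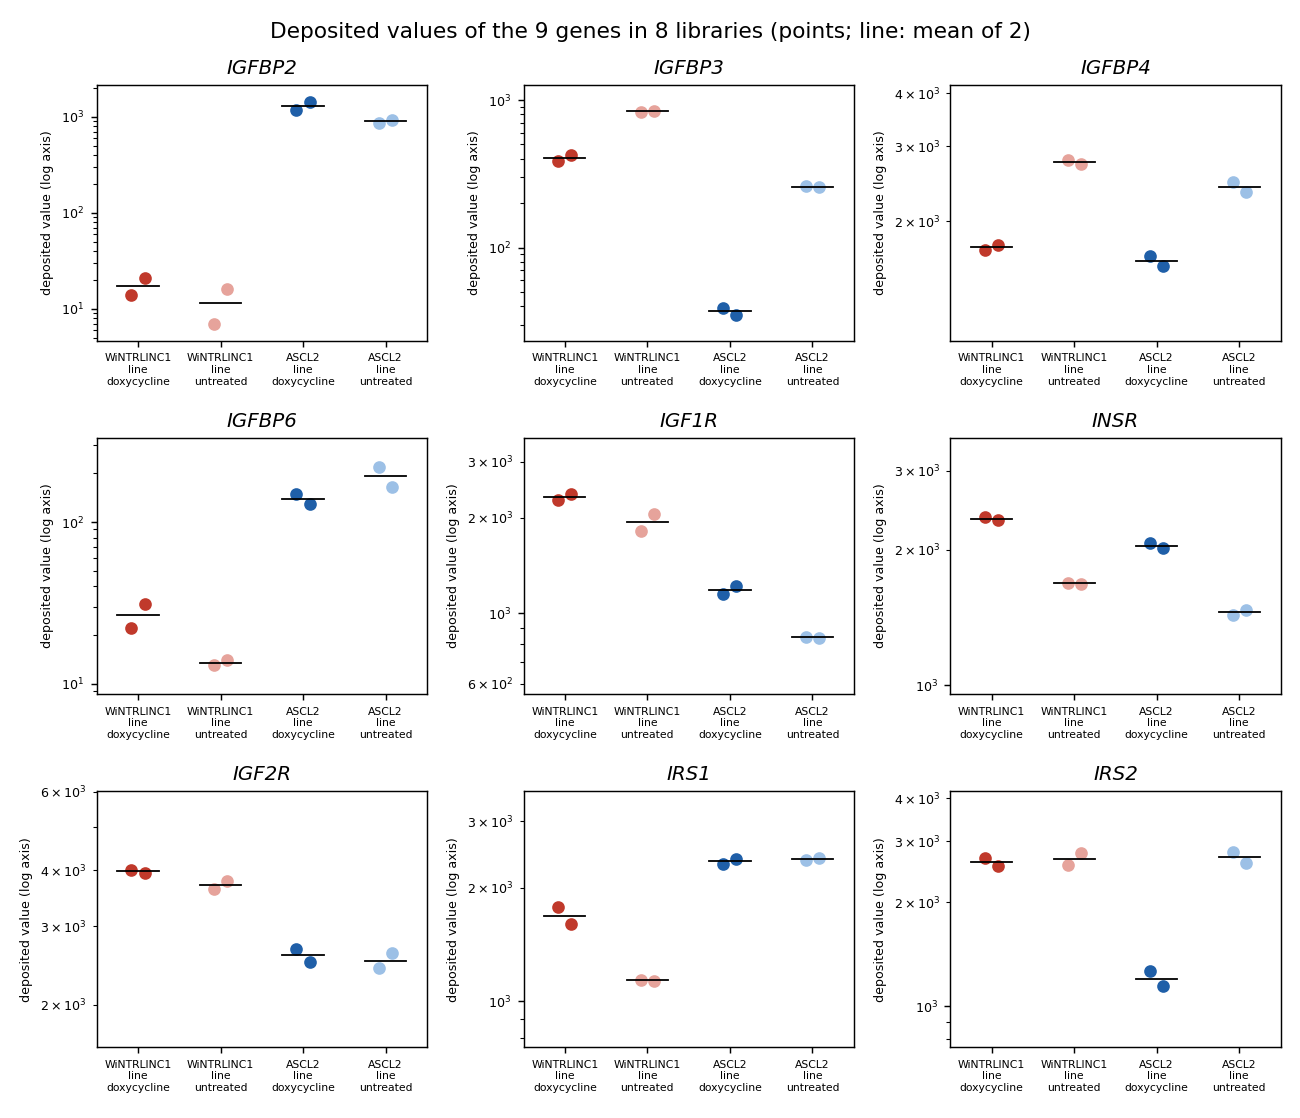
Deposited value (scaled, rounded read count, log axis) of each of the 9 members in the 8 libraries, with points for libraries and a line for the mean of 2. IGFBP2 lies at 7 to 21 in the WiNTRLINC1 line and at 865 to 1432 in the ASCL2 line, and the 4 treated libraries lie below the 4 untreated ones for IGFBP4 and above them for INSR.

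Per kilobase of exon, a scale on which genes can be set side by side, the 4 binding proteins summed to 883 and 921 in doxycycline-treated and 1460 and 1435 in untreated cells of the WiNTRLINC1 line. The sums in the ASCL2 line were 1119.4 and 1118.9 in doxycycline-treated and 1530 and 1438 in untreated cells. IGFBP4 supplied 87.0% to 88.2% of the sum in doxycycline-treated and 86.2% to 86.8% in untreated WiNTRLINC1-line cells. Its share was smaller in the ASCL2 line, 63.9% to 67.3% in doxycycline-treated and 73.7% to 74.0% in untreated cells. The rest was mainly IGFBP3 in the WiNTRLINC1 line, with 9.59% and 10.0% in doxycycline-treated and 12.5% and 12.9% in untreated cells, and IGFBP2 and IGFBP6 in the ASCL2 line. There IGFBP2 made up 22.0% and 26.8% in doxycycline-treated and 11.9% and 13.6% in untreated cells, and IGFBP6 made up 9.96% and 8.57% in doxycycline-treated and 10.7% and 8.52% in untreated cells. IGFBP3 made up 0.762% and 0.684% in doxycycline-treated and 3.75% and 3.89% in untreated ASCL2-line cells. These shares are descriptions with no test. Lengths came from GENCODE 29 and not from the annotation the authors used. The shares depend on the length chosen. With the longest transcript as the length, IGFBP3 rose from 183 to 347 per kilobase in untreated WiNTRLINC1-line cells, while IGFBP4 stayed at 1252, so the share of IGFBP4 there would be smaller.

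**Figure D2:**
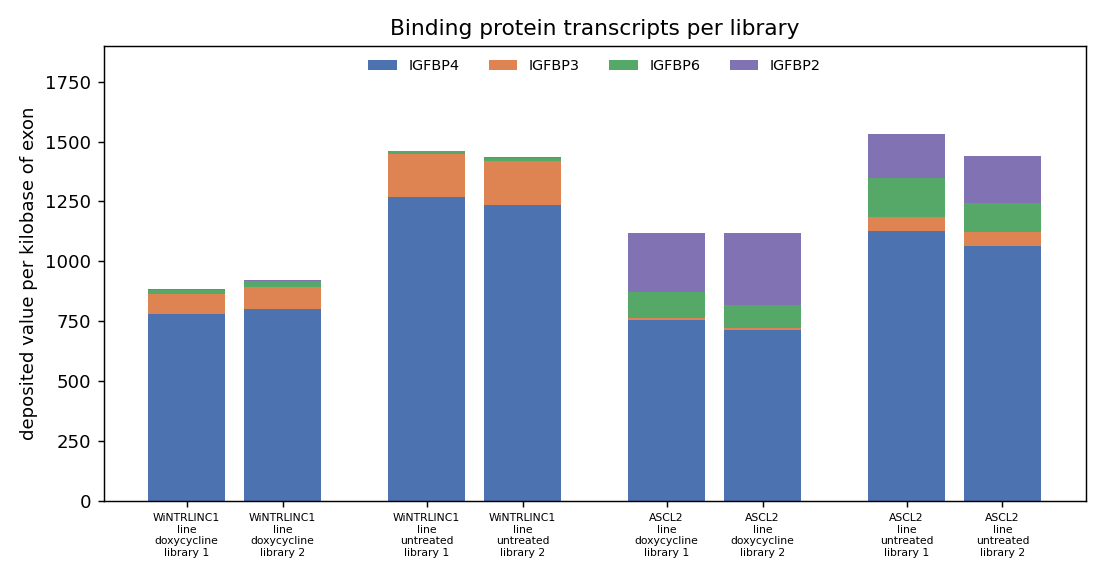
Deposited values per kilobase of exon, stacked for IGFBP4, IGFBP3, IGFBP6 and IGFBP2, one bar per library. The bars of doxycycline-treated libraries reach 883 to 1119 and those of untreated libraries 1435 to 1530, with IGFBP4 the largest part of every bar.

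INSR rose in both lines by nearly the same amount, IGF1R rose in both, with a fragile call in the WiNTRLINC1 line, and IGF2R did not pass the test in either. The untreated WiNTRLINC1 line had more transcript of all 3 receptors than the untreated ASCL2 line.

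INSR, the insulin receptor, had values of 2364 and 2332 in doxycycline-treated and 1690 and 1679 in untreated cells of the WiNTRLINC1 line. It had 2066 and 2014 in doxycycline-treated and 1433 and 1471 in untreated cells of the ASCL2 line. All 4 treated libraries lay above all 4 untreated ones. INSR rose by 0.48 ± 0.0734 in the WiNTRLINC1 line (log2, 1.39-fold, adjusted p 0.000307) and by 0.49 ± 0.0734 in the ASCL2 line (1.40-fold, adjusted p 0.00018). The difference between the responses was -0.01 ± 0.104 and did not pass the test (adjusted p 0.966). INSR was 1.16-fold higher in the untreated WiNTRLINC1 line than in the untreated ASCL2 line (log2 0.21 ± 0.0734, adjusted p 0.0223), a call lost in 5 of 19 alternatives, including those without untreated replicate 1 or 2 of the WiNTRLINC1 line or untreated replicate 1 of the ASCL2 line (adjusted p 0.0686, 0.0583 and 0.0862).

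IGF1R, the main signalling receptor for IGF1 and IGF2, had values of 2274 and 2374 in doxycycline-treated and 1820 and 2055 in untreated cells of the WiNTRLINC1 line. It had 1147 and 1216 in doxycycline-treated and 843 and 835 in untreated cells of the ASCL2 line. Treated and untreated libraries did not overlap within either line, and every WiNTRLINC1-line library lay above every ASCL2-line library. IGF1R rose by 0.26 ± 0.0846 in the WiNTRLINC1 line (log2, 1.20-fold, adjusted p 0.0412) and by 0.49 ± 0.0846 in the ASCL2 line (1.41-fold, adjusted p 0.000568). The WiNTRLINC1-line call was lost in 9 of 19 alternatives, among them leaving out treated replicate 1, treated replicate 2 or untreated replicate 1 of that line (adjusted p 0.101, 0.213 and 0.277) or either treated replicate of the ASCL2 line (adjusted p 0.0561 and 0.0563). The responses did not differ past the threshold (-0.23 ± 0.12, adjusted p 0.239). IGF1R was 2.30-fold higher in the untreated WiNTRLINC1 line than in the untreated ASCL2 line (log2 1.20 ± 0.0846, adjusted p 1.97e-08).

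IGF2R had values of 4010 and 3951 in doxycycline-treated and 3638 and 3781 in untreated cells of the WiNTRLINC1 line. It had 2671 and 2498 in doxycycline-treated and 2412 and 2608 in untreated cells of the ASCL2 line, where the groups overlapped. Its log2 responses were 0.10 ± 0.0743 in the WiNTRLINC1 line (adjusted p 0.403) and 0.04 ± 0.0743 in the ASCL2 line (adjusted p 0.726), and neither passed the test. IGF2R was 1.48-fold higher in the untreated WiNTRLINC1 line than in the untreated ASCL2 line (log2 0.56 ± 0.0743, adjusted p 1.36e-05). IGF1R and IGF2R each overlap a known antisense RNA, and since the use of strand in counting is not given in the sources used here, reads of the partners cannot be told apart.

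Within each library the ratio of INSR to IGF1R per kilobase was 1.39 and 1.31 in doxycycline-treated and 1.24 and 1.09 in untreated WiNTRLINC1-line cells, and 2.40 and 2.21 in doxycycline-treated and 2.27 and 2.35 in untreated ASCL2-line cells. INSR transcript therefore exceeded that of IGF1R in all 8 libraries, by less in the WiNTRLINC1 line.

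The substrates behaved unlike each other: IRS2 fell with doxycycline in the ASCL2 line and IRS1 rose with it in the WiNTRLINC1 line, and for each gene the response of the other line did not pass the test. Both differences of responses passed the test.

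IRS2 had values of 2682 and 2555 in doxycycline-treated and 2565 and 2783 in untreated cells of the WiNTRLINC1 line, which overlapped. The ASCL2 line had 1261 and 1140 in doxycycline-treated and 2796 and 2605 in untreated cells. The doxycycline-treated ASCL2-line libraries were the low ones, and the 6 others lay between 2555 and 2796. IRS2 fell by 1.17 ± 0.0823 on the log2 scale in the ASCL2 line (2.25-fold lower, adjusted p 1.63e-07), while the WiNTRLINC1-line difference was -0.03 ± 0.0823 (adjusted p 0.864). The responses differed by 1.14 ± 0.116 (adjusted p 1.15e-05). The untreated lines had a log2 difference of -0.01 ± 0.0823, which did not pass the test (adjusted p 0.894).

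IRS1 had values of 1772 and 1601 in doxycycline-treated and 1139 and 1134 in untreated cells of the WiNTRLINC1 line. In the ASCL2 line it had 2311 and 2382 in doxycycline-treated and 2360 and 2398 in untreated cells, which overlapped. The untreated WiNTRLINC1-line libraries were the lowest, and the treated libraries of that line stood between them and all 4 ASCL2-line libraries. IRS1 rose by 0.57 ± 0.0784 in the WiNTRLINC1 line (log2, 1.48-fold, adjusted p 0.000125), against a difference of -0.02 ± 0.0784 in the ASCL2 line (adjusted p 0.884). The responses differed by 0.59 ± 0.111 (adjusted p 0.00201), or 0.0558 when the variance was modelled without a mean trend. IRS1 was 2.09-fold lower in the untreated WiNTRLINC1 line than in the untreated ASCL2 line (log2 -1.07 ± 0.0784, adjusted p 3.24e-08).

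**Figure D3:**
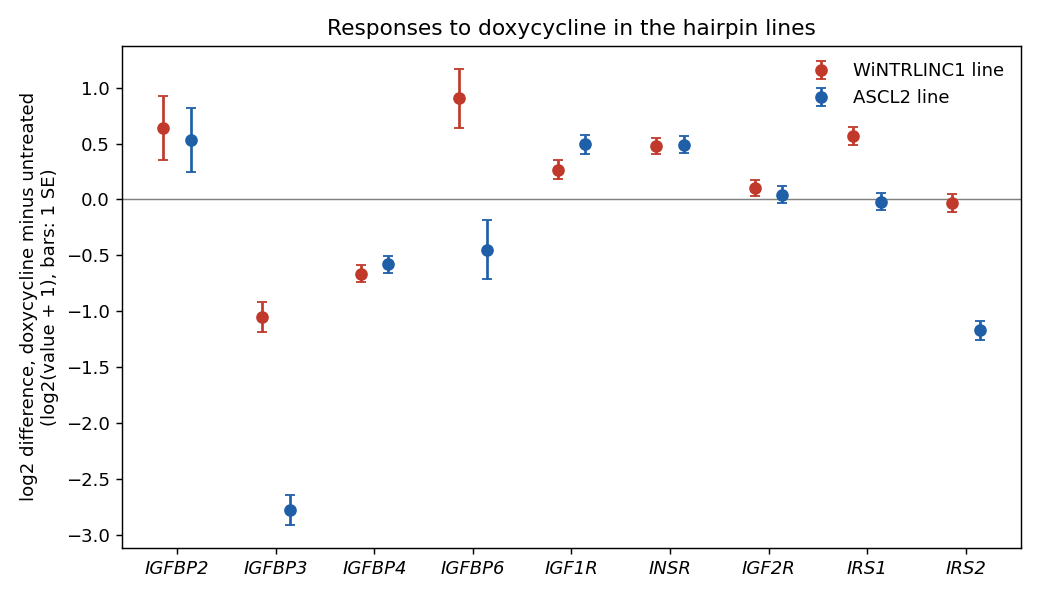
Log2 difference (doxycycline minus untreated, on log2(value + 1)) of each member in the WiNTRLINC1 line and the ASCL2 line, with bars of 1 SE from the fit over all 8 libraries. IGFBP3 lies at -1.05 and -2.78, IRS2 at -0.03 and -1.17 and IRS1 at 0.57 and -0.02 in the WiNTRLINC1 and ASCL2 lines, while INSR and IGFBP4 lie close together.

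The ratio of IRS1 to IRS2 per kilobase was 0.540 and 0.512 in doxycycline-treated and 0.363 and 0.333 in untreated WiNTRLINC1-line cells. It was 1.498 and 1.708 in doxycycline-treated and 0.690 and 0.753 in untreated ASCL2-line cells. The ratio was thus higher with doxycycline in both lines, through higher IRS1 in the WiNTRLINC1 line and lower IRS2 in the ASCL2 line, and only the treated ASCL2-line libraries had more IRS1 than IRS2. As a description this carries no test.

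**Figure D4:**
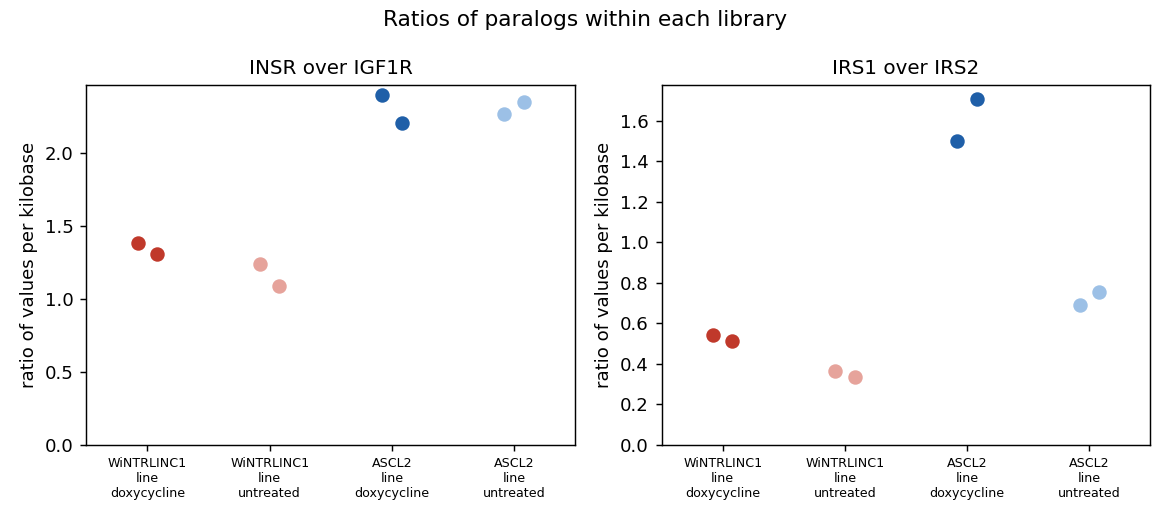
Ratios of values per kilobase within each library for INSR over IGF1R and IRS1 over IRS2, one point per library, axes from 0. The IRS1 to IRS2 ratio is 0.512 to 0.540 in treated and 0.333 to 0.363 in untreated WiNTRLINC1-line libraries, and 1.498 to 1.708 in treated and 0.690 to 0.753 in untreated ASCL2-line libraries.

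By level per kilobase of exon, IGFBP4 came first in all 4 groups, with 790.2 ± 15.7 (SD, n = 2) in doxycycline-treated and 1252 ± 21.9 in untreated WiNTRLINC1-line cells, and 734 ± 27.0 in doxycycline-treated and 1096 ± 44.7 in untreated ASCL2-line cells. IRS2 was the next member in 3 groups, with 322 ± 11.04 in doxycycline-treated and 329 ± 18.9 in untreated WiNTRLINC1-line cells and 332 ± 16.6 in untreated ASCL2-line cells. In doxycycline-treated ASCL2-line cells it dropped to the fifth place with 148 ± 10.5, where its libraries overlapped those of IGF2R, and IGFBP2 took the second place with 273 ± 38.3. IGFBP2 was last in the WiNTRLINC1 line, with 3.67 ± 1.04 in doxycycline-treated and 2.41 ± 1.34 in untreated cells. IGFBP3 was last in the ASCL2 line, with 8.09 ± 0.619 in doxycycline-treated and 56.7 ± 0.928 in untreated cells, but held the fourth place in untreated WiNTRLINC1-line cells with 183 ± 1.86. IGF1R held the sixth place in both WiNTRLINC1-line groups and the eighth in both ASCL2-line groups, with 84.8 ± 3.4998 in doxycycline-treated and 60.2 ± 0.406 in untreated cells of the ASCL2 line. Neighbours whose libraries overlapped were INSR with IGF2R and IRS1 with IGF1R in doxycycline-treated WiNTRLINC1-line cells, IGFBP6 with IGF2R and IGF2R with INSR in untreated ASCL2-line cells, and IRS2 with IGF2R in doxycycline-treated ASCL2-line cells. With the longest transcript as the length, several of these places changed. The level of IGFBP3 was 347 in untreated WiNTRLINC1-line cells, which put it in place 2 and IRS2 in place 3. In untreated ASCL2-line cells IGFBP3 (107) was then in place 8 and IGF1R (68.6) was last. IGF1R was in place 5 in doxycycline-treated WiNTRLINC1-line cells, and IRS2 was in place 6 in doxycycline-treated ASCL2-line cells.

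Over the whole fit, 6 of the 9 members passed the test in the WiNTRLINC1 line, 4 higher and 2 lower, beside 18.6% of all tested genes (9.54% higher and 9.03% lower). Leaving aside IGFBP3, 2 of the 8 others were called higher and 2 lower in the ASCL2 line, beside 26.6% of all genes (13.9% higher and 12.7% lower). The difference of responses was called for 3 of these 8 (IRS2, IRS1 and IGFBP6), each with the higher response in the WiNTRLINC1 line, beside 15.0% of all genes. Between the untreated lines 4 of the 8 were called higher and 3 lower in the WiNTRLINC1 line, beside 55.2% of all genes (25.7% higher and 29.5% lower). The small IGFBP4 difference there (1.14-fold higher, log2 0.19 ± 0.0751, adjusted p 0.0417) lost its call in 11 of 19 alternatives, including 6 that left out 1 library: treated replicate 1, treated replicate 2, untreated replicate 1 or untreated replicate 2 of the WiNTRLINC1 line, or treated replicate 1 or untreated replicate 2 of the ASCL2 line (adjusted p 0.0502 to 0.186). Since the members were picked with results known, nothing is read from these shares. The untreated groups enter both a response and the comparison of the lines, so these comparisons share libraries.

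The ligands had low values, at most 34 in any library. IGF1 had values of 14 and 17 in doxycycline-treated and 12 and 21 in untreated WiNTRLINC1-line cells, and 22 and 23 in doxycycline-treated and 30 and 13 in untreated ASCL2-line cells. IGF2 had 6 and 6 in doxycycline-treated and 8 and 14 in untreated WiNTRLINC1-line cells, and 34 and 17 in doxycycline-treated and 23 and 14 in untreated ASCL2-line cells. INS, the insulin gene, had at most 1 in any library and was not tested. Neither IGF1 nor IGF2 passed the limma test in any of the 4 comparisons, and 0 had an unadjusted p under 0.05. The other binding proteins on the list, IGFBP1, IGFBP5, IGFBP7, IGFALS and IGFBPL1, had values of 0 to 35, and 0 of the 2 tested passed in any comparison (limma), with IGFALS alone under an unadjusted p of 0.05, for the difference of responses (log2 1.16 ± 0.496). The 4 proteases of binding proteins and their inhibitors (PAPPA, PAPPA2, STC1 and STC2) also had 0 calls, with 1 unadjusted p under 0.05, that of STC2 in the WiNTRLINC1 line (log2 0.56 ± 0.26). That SE came from 1 spread shared by all 4 groups, and the STC2 libraries of the ASCL2 line lay far apart (1308 and 2442 treated). Over all genes 18.6% were called in the WiNTRLINC1 line, 26.6% in the ASCL2 line, 15.0% for the difference of responses and 55.2% between the untreated lines. With 2 to 4 genes tested per list, nothing is read from the 0 calls.

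In all, 76 other genes of the axis, from the ligands to the FOXO targets, were listed by role, 74 were in the files and 61 were tested. In the WiNTRLINC1 line 9 rose and 6 fell, 24.6% called beside 18.6% of all genes (median log2 difference 0.0176 beside 0.00724 over all genes). In the ASCL2 line 12 rose and 11 fell, 37.7% called beside 26.6% of all genes (median 0.0473 beside 0.00625). The WiNTRLINC1-line total of 15 was fragile: it was 3 without treated replicate 2, 7 without treated replicate 1, 6 without untreated replicate 1, 10 without untreated replicate 2, 5 with no filter on low values and 3 without the mean-variance trend. The difference of responses was called for 13 of them, 9 higher and 4 lower, 21.3% beside 15.0% of all genes (median -0.0596 beside -0.00565). That total was 8 without treated replicate 2 of the WiNTRLINC1 line, 7 with no filter and 6 without the trend. Between the untreated lines 16 were higher and 22 lower in the WiNTRLINC1 line, 62.3% called beside 55.2% of all genes (median -0.121 beside -0.0440). The lists too were chosen with earlier results known, so nothing is read from these shares.

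Of 21 tested genes of the PI3K, AKT and mTOR chain, 4 rose and 0 fell in the WiNTRLINC1 line (limma; 0 fell at an unadjusted p under 0.05 too), and 3 rose and 6 fell in the ASCL2 line. That is 19.0% called in the WiNTRLINC1 line, near the 18.6% of all genes, and 42.9% in the ASCL2 line beside 26.6%. AKT1, the kinase at the centre of the chain, rose by 0.25 ± 0.0703 (log2, adjusted p 0.0198) and PIK3CB, a catalytic subunit of PI3K, by 0.38 ± 0.106 (adjusted p 0.0223) in the WiNTRLINC1 line. GSK3A, a kinase that AKT inhibits, fell by 0.91 ± 0.0815 in the ASCL2 line (adjusted p 1.52e-06), with values of 1027 and 1027 in doxycycline-treated and 1894 and 1973 in untreated cells. RPS6KB1, the S6 kinase, fell there by 0.61 ± 0.106 (adjusted p 0.000606). PIK3R1, the regulatory subunit that docks on IRS proteins, rose by 0.53 ± 0.0954 in that line (adjusted p 0.000766), and RHEB, the activator of mTOR, by 0.52 ± 0.106 (adjusted p 0.00214). PIK3R1 also rose in the WiNTRLINC1 line, by 0.31 ± 0.0954 (adjusted p 0.0321). PIK3CB, higher with doxycycline in the WiNTRLINC1 line, fell in the ASCL2 line by 0.41 ± 0.106 (adjusted p 0.00941). The responses of GSK3A differed by 1.02 ± 0.115 (adjusted p 2.93e-05) and those of PIK3CB by 0.79 ± 0.15 (adjusted p 0.00213), each higher in the WiNTRLINC1 line. Those of AKT1, PIK3R1 and RHEB did not differ past the threshold (adjusted p 0.112, 0.325 and 0.121). Between the untreated lines 7 genes of the chain were higher and 7 lower in the WiNTRLINC1 line, 66.7% called beside 55.2% of all genes. MTOR (1.82-fold) and TSC2, a brake on mTOR (1.54-fold), led the higher genes, and PIK3CB (1.75-fold) and RHEB (1.48-fold) the lower ones.

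Among 8 tested substrates and adaptors other than the IRS genes, 1 rose and 1 fell in the WiNTRLINC1 line and 2 rose in the ASCL2 line, which is 25% in each beside 18.6% and 26.6% of all genes. The docking protein GAB1 rose by 0.58 ± 0.19 (adjusted p 0.047) and the adaptor SH2B1 fell by 0.40 ± 0.0798 (adjusted p 0.00269) in the WiNTRLINC1 line. GRB10, an adaptor that restrains INSR and IGF1R, rose by 0.52 ± 0.0819 (adjusted p 0.000265) and the adaptor SHC1 by 0.23 ± 0.0816 (adjusted p 0.0461) in the ASCL2 line, and the responses of GRB10 differed by -0.41 ± 0.116 (adjusted p 0.0248). Those of GAB1, SH2B1 and SHC1 did not differ past the threshold (adjusted p 0.702, 0.0657 and 0.0522). Between the untreated lines 3 were higher and 4 lower in the WiNTRLINC1 line, 87.5% called beside 55.2% of all genes. SH2B1 (1.35-fold) and SHC1 (1.31-fold) were among the higher ones, and the exchange factors SOS1 (1.74-fold) and SOS2 (1.55-fold) among the lower ones. Among the receptor-processing genes, M6PR, the smaller mannose 6-phosphate receptor, rose in the ASCL2 line by 0.47 ± 0.0803 (adjusted p 0.000548). The responses of M6PR did not differ past the threshold (adjusted p 0.124). The response of FURIN, the protease that cleaves the INSR and IGF1R precursors, was higher in the WiNTRLINC1 line than in the ASCL2 line by 0.40 ± 0.112 (adjusted p 0.0262). FURIN was 2.22-fold lower in the untreated WiNTRLINC1 line than in the untreated ASCL2 line (adjusted p 1.67e-08).

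Among 8 tested negative regulators, 1 rose and 1 fell in the WiNTRLINC1 line, and 2 rose and 2 fell in the ASCL2 line, which is 25% and 50.0% beside 18.6% and 26.6% of all genes. PHLPP2, a phosphatase of AKT, fell in both, with log2 differences of -0.36 ± 0.105 in the WiNTRLINC1 line (adjusted p 0.026) and -0.42 ± 0.105 in the ASCL2 line (adjusted p 0.00834). PTPRF, a receptor phosphatase, rose by 0.24 ± 0.0708 in the WiNTRLINC1 line (adjusted p 0.0292) and fell by 0.32 ± 0.0708 in the ASCL2 line (adjusted p 0.00383), and these responses differed by 0.56 ± 0.1 (adjusted p 0.00143). TRIB3, an inhibitor of AKT, rose in the ASCL2 line by 0.95 ± 0.14 (adjusted p 0.000156), but its responses did not differ past the threshold (adjusted p 0.0626). PTPN1, the phosphatase that dephosphorylates INSR, also rose there by 0.45 ± 0.079 (adjusted p 0.000732), and its responses differed by -0.43 ± 0.112 (adjusted p 0.0162). Between the untreated lines 2 were higher and 4 lower in the WiNTRLINC1 line, 75.0% called beside 55.2% of all genes. PTPRF (1.16-fold) and INPPL1 (1.15-fold) were higher, and PHLPP2 (2.18-fold) led the lower ones.

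The IGF2 mRNA-binding proteins IGF2BP2 and IGF2BP3, which stabilise bound transcripts, rose in both lines, while IGF2BP1 stayed at 4 to 17 and was not called. IGF2BP2 had values of 1519 and 1676 in doxycycline-treated and 924 and 976 in untreated WiNTRLINC1-line cells, a log2 rise of 0.75 ± 0.0888 (adjusted p 3.08e-05). It had 1187 and 1278 in doxycycline-treated and 824 and 875 in untreated ASCL2-line cells, a rise of 0.54 ± 0.0888 (adjusted p 0.000424). IGF2BP3 rose by 0.51 ± 0.12 in the WiNTRLINC1 line (adjusted p 0.00793) and by 0.96 ± 0.12 in the ASCL2 line (adjusted p 3.61e-05). That is 66.7% of 3 tested genes in each line, beside 18.6% of all genes in the WiNTRLINC1 line and 26.6% in the ASCL2 line. The differences of these responses were called for 0 of the 3 genes (limma), beside 15.0% of all genes, with 1 unadjusted p under 0.05. With 3 genes nothing is read from these shares. IGF2BP3 was 1.32-fold higher in the untreated WiNTRLINC1 line than in the untreated ASCL2 line (adjusted p 0.011).

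Of 11 tested targets of FOXO, the transcription factors that AKT holds out of the nucleus, 1 rose and 4 fell in the WiNTRLINC1 line, and 2 rose and 3 fell in the ASCL2 line, which is 45.5% in each beside 18.6% and 26.6% of all genes. IRS2 and INSR are themselves known FOXO targets, but they were counted only as members. PCK1, a gluconeogenic enzyme, fell in both, with log2 differences of -0.87 ± 0.108 in the WiNTRLINC1 line (adjusted p 4.44e-05) and -2.73 ± 0.108 in the ASCL2 line (adjusted p 6.31e-10). CCNG2, an atypical cyclin, fell by 0.38 ± 0.0956 in the WiNTRLINC1 line (adjusted p 0.0109), and the repressor BCL6 fell by 1.24 ± 0.113 in the ASCL2 line (adjusted p 1.81e-06). The responses of CCNG2 did not differ past the threshold (adjusted p 0.203). GADD45A, a stress gene, rose by 0.43 ± 0.107 in the WiNTRLINC1 line (adjusted p 0.0111) and by 0.58 ± 0.107 in the ASCL2 line (adjusted p 0.00098). CDKN1B, the cell cycle inhibitor p27, fell by 0.29 ± 0.0794 in the WiNTRLINC1 line (adjusted p 0.0174) and rose by 0.53 ± 0.0794 in the ASCL2 line (adjusted p 0.000171). Its responses differed by -0.83 ± 0.112 (adjusted p 0.000137). The responses of PCK1 differed by 1.86 ± 0.152 (adjusted p 1.83e-06), those of the transcriptional coregulator CITED2 by 1.42 ± 0.166 (adjusted p 4e-05) and those of the mitophagy receptor BNIP3 by -0.51 ± 0.163 (adjusted p 0.0492). Between the untreated lines 3 targets were higher and 6 lower in the WiNTRLINC1 line, 81.8% called beside 55.2% of all genes. PCK1 (3.20-fold) and SESN1 (1.43-fold) led the higher ones, and CITED2 (6.98-fold) and BCL6 (2.28-fold) the lower ones.

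The genes with the group profile most like that of a member were found among 12987 genes averaging 100 or more, by the root mean square difference of the 4 group means of log2(value + 1) after centring each gene. For IGFBP3 they were PCK1 (0.0698), SMOC2 (0.194) and CD74 (0.272). PCK1 averaged 1466 in doxycycline-treated and 2688 in untreated WiNTRLINC1-line cells, and 126 in doxycycline-treated and 839 in untreated ASCL2-line cells. For IRS2 they were HIPK1 (0.0269), SLC35E1 (0.0288) and PPARA (0.0522). HIPK1 averaged 2006 in doxycycline-treated and 1979 in untreated WiNTRLINC1-line cells, and 899 in doxycycline-treated and 2096 in untreated ASCL2-line cells. For IGFBP2 they were PXDN (0.177), LHX2 (0.241) and UCA1 (0.262), for IGFBP6 GRAMD1A (0.0994), IL2RG (0.137) and STING1 (0.187), for IGF1R ATF3 (0.0304), ABCC5 (0.0304) and HSPD1 (0.0309), and for IRS1 LRRC8E (0.0459), GAA (0.0515) and RPL35P2 (0.0563). With 4 group means as the only points, this likeness is a description and carries no test.

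**Figure D5:**
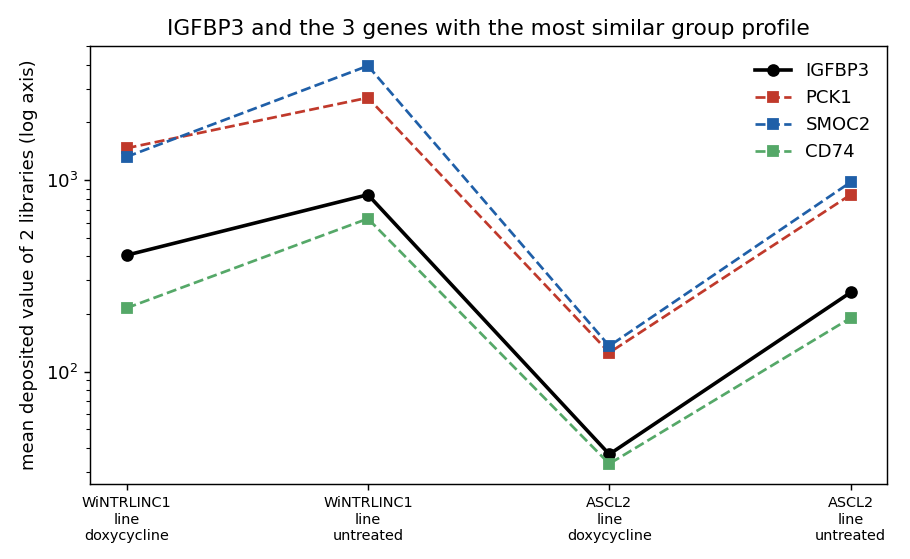
Mean deposited value of 2 libraries per group (log axis) for IGFBP3 and the 3 genes with the most similar centred profile, PCK1, SMOC2 and CD74; the lines join the groups only to guide the eye. All 4 genes are lowest in doxycycline-treated ASCL2-line cells, where IGFBP3 averages 37.0, and highest in untreated WiNTRLINC1-line cells, where it averages 838.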

How the data were processed

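Each deposited score is a whole number per Ensembl gene and library. From the values themselves it is a scaled and rounded read count: in 3 libraries some low whole numbers never occur, and the totals differ little. Per the submitters' processing notes, the authors used cutadapt, TopHat2 2.0.9, Cufflinks and DESeq, and builds are listed (hg19, GRCh37, mm9) with no role given. How reads were counted, and whether by strand, is not given in the sources used here. Because the raw counts behind the score are not known, no count test, interval or floor was computed, and the depth is known only after scaling.

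All 8 libraries in 4 groups of 2 entered 1 limma fit (limma 3.58.1, R 4.3.3) on log2(score + 1) with a mean-variance trend and no covariate (4 residual and 10.5 prior degrees of freedom). A fold change is on that scale, which understates changes of low genes. Genes entered the test with scores of 10 or more in 2 or more libraries. Calls are Benjamini-Hochberg adjusted p-values under 0.05 over all 22100 genes. The script was tested on simulated data. The members and lists were chosen with earlier results of these data known. All members and ligands are named, and per list and comparison up to 2 called genes per direction with the smallest adjusted p. For some named genes the values of other comparisons are given too. Likeness is named for members whose group means span at least 1 on the log2 scale. Symbols were joined to Ensembl IDs from GENCODE 29 (GRCh38), which also gave exon lengths. SOD2, TXNIP and PECAM1 were not analysed here, and some items under these rules are not reported here.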

Additional observations from a re-analysis of the deposited data

Results flagged for a closer look

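For 16 genes named in the text the response to doxycycline differed between the lines by the contrast of responses in the limma fit (adjusted p under 0.05). That contrast was called for 15.0% of all 22100 tested genes and for 21.3% of the 61 tested axis genes other than the members. The genes were listed with earlier results known, so nothing is read from this count. Positive values mean a higher response in the WiNTRLINC1 line than in the ASCL2 line, on the log2 scale. IGFBP3 is left out, since its ASCL2-line response was known when the members were chosen. Among the other members these were IGFBP6 (1.36), IRS2 (1.14) and IRS1 (0.587). The IGFBP6 call was lost in 7 of 18 alternatives and the IRS1 call in 1 of 18.

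In the PI3K, AKT and mTOR chain they were GSK3A (1.02), PIK3CB (0.789), PIK3R3, a regulatory subunit of PI3K (0.643), and RPS6KB1 (0.582). Among the FOXO targets they were PCK1 (1.86), CITED2 (1.42), BCL6 (1.07), CDKN1B (-0.827) and BNIP3 (-0.507). The others were PTPRF (0.556), PTPN1 (-0.431), GRB10 (-0.413) and FURIN (0.396). The differences of PIK3R3, RPS6KB1 and BCL6 lie outside the rule for named genes and are given because they passed this test.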

How the results depend on the processing

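Of 36 member differences (9 members in 4 comparisons), 28 kept their side of the threshold in every alternative run, and those that did not are given above with the libraries they rest on. Both counts include the IGFBP3 differences that are given above as descriptions with no test. Signs turned only for differences that were not called. IGF2R in the ASCL2 line was -0.00174 after division by library totals and -0.00155 after quantile normalization, and -0.0139 to 0.0988 with 1 library left out. The difference of responses of INSR was 0.0452 after division by totals and 0.00447 with median-of-ratios factors (-0.0303 to 0.00746 with 1 library left out), and that of IGFBP2 was -0.0429 with a pseudocount of 5 (-0.435 to 0.653). IRS2 between the untreated lines was 0.0286 with median-of-ratios factors (-0.0733 to 0.0443), IRS2 in the WiNTRLINC1 line -0.0883 to 0.0294 and IRS1 in the ASCL2 line -0.0418 to 0.00186 with 1 library left out. The cause was not tested.

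Counts over all genes moved more. Without the mean-variance trend 1873 genes were called in the WiNTRLINC1 line (4104 with it), 3410 in the ASCL2 line (5884) and 1313 for the difference of responses (3314). Among the members other than IGFBP3, the difference of responses then lost its call for IGFBP6 and IRS1 and kept it for IRS2. Without a filter on low values the WiNTRLINC1 line had 2395 calls and the difference of responses 1914. With 1 library left out, calls ran from 2398 (without treated replicate 2) to 4131 in the WiNTRLINC1 line and from 3665 (without treated replicate 2) to 5862 in the ASCL2 line. With the longest transcript as the length, mean levels per kilobase over 8 libraries were 159.5 for IGFBP3 (84.2 with all exons), 128 for IGF1R (113), 228 for IGF2R (179) and 210 for INSR (180.0), and other members moved by less than 1 SD.

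The labels do not say that a replicate number marks a shared culture or batch, and deviations of same-numbered libraries correlated at -0.143 to 0.302 over pairs of groups, so the numbers were not taken to pair the libraries, though a shared origin in some groups was not tested. With the number as a replicate block, 0 results changed their call, and IGFBP4 in the WiNTRLINC1 line had a log2 difference of -0.66 with an adjusted p of 2.6e-05. IGFBP2 and IGFBP6 had low values in the WiNTRLINC1 line, 7 to 21 and 13 to 31. Their log2 responses had an SE of 0.287 and 0.264, against 0.0734 to 0.133 for the other members. Each SE came from 1 spread shared by all 4 groups. In the ASCL2 line IGFBP2 was not low, at 865 to 1432, and its response passed the limma test with only that line fitted (adjusted p 0.00783).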

Other observations

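STC2, an inhibitor of the protease PAPPA that cleaves IGFBP4, differed more between the libraries of a group than between treatments in the ASCL2 line. It had values of 1308 and 2442 in doxycycline-treated and 1306 and 2538 in untreated cells of that line, so each library labelled replicate 2 was the higher one. In the WiNTRLINC1 line it had 2787 and 3204 in doxycycline-treated and 1896 and 2174 in untreated cells. TRIB3 had 6065 and 8551 in doxycycline-treated and 3197 and 4331 in untreated ASCL2-line cells, also higher in each replicate 2. These genes were singled out after their values were seen.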
